A study of Mus musculus with 15 samples.

Results

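Hcn2, Hcn3 and Hcn4 encode hyperpolarization-activated cyclic nucleotide-gated (HCN) channels, and they were followed here in large sensory neurons of mouse dorsal root ganglia. They were taken by gene symbol from the annotation of the arrays' probe sets, and they make up 3 of the 19938 genes tested. Each had 1 probe set that named it alone.

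HCN channels open when the membrane becomes more negative and then let sodium and potassium pass, which gives a slow inward current that pulls the cell back toward firing. Cyclic AMP binds to the channel's tail and makes it open more readily, strongly in HCN2 and HCN4 and little in HCN3, and this is one way in which inflammatory signals can raise the firing of a sensory neuron. In mice, HCN2 of nociceptors is known to be needed for several forms of inflammatory and neuropathic pain, HCN4 is best known as the pacemaker channel of the heart, and HCN3 is found in several parts of the nervous system.

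The mice were of the C57BL/6 strain and carried a green fluorescent reporter driven by the CGRP promoter, where CGRP is calcitonin gene-related peptide, which many nociceptors release. All 15 samples came from such mice, each group had 3 arrays, and the series describes these as biological replicates. Neurons of lumbar ganglia 2 to 5 were dissociated, and those over 26.9 µm were sorted by the reporter and by a fluorescent wheat germ agglutinin tracer that had been placed in the gastrocnemius muscle or at the saphenous nerve 5 days before the mice were killed. CFA paw held CGRP-positive neurons that project to skin, from mice given complete Freund's adjuvant (CFA), an emulsion that causes lasting local inflammation, and saline paw held the same class of neurons from mice given saline. CFA muscle, acid muscle and saline muscle held CGRP-negative neurons that project to muscle, from mice given CFA, acid or saline in the muscle. The saline groups were the controls. The ages of the mice, the number of mice behind each sample, the doses and the time from injection to sampling are not given in the sources used here. Every skin group was CGRP-positive and every muscle group CGRP-negative, so target tissue, CGRP status and injection site cannot be told apart.

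The arrays did not stand on an equal footing. The standard deviation (SD) of log2 values over all genes was 1.42 on saline paw array 1, 1.66 to 1.80 on the other 5 paw arrays and 1.28 to 1.55 on the 9 muscle arrays. Correlations within a group ran from 0.939 to 0.991 in saline paw, the widest range of the 5 groups. Along the leading component of all genes, which held 55.8% of the variance, saline paw array 1 scored −22.3 and thus lay with the muscle arrays (−50.5 to −5.67) and not with the other paw arrays (32.5 to 58.1). Below, the Hcn2 difference between the paw and muscle means, the counts of list genes and the marker counts that changed are also given without this array. The permutation tests, the values relative to markers, the other scalings, the named list genes and the like genes of Hcn2 include it throughout. By mean level over all arrays, all 9 general sensory neuron markers were above the dim limit of 2.45. That limit is the level under which 95% of olfactory and vomeronasal receptor genes lay. By the same measure, 7 of 10 macrophage markers were under it.

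Hcn2 was the one member that passed a test between the neuron classes on the values as deposited, a call that was lost under 3 other ways of scaling the arrays. Its log2 level was 6.38, 6.22 and 6.07 on the CFA paw arrays and 5.47, 6.82 and 6.18 on the saline paw arrays. It was 5.13, 5.26 and 5.13 on the CFA muscle arrays, 5.52, 4.74 and 5.82 on the acid muscle arrays and 5.53, 5.07 and 5.85 on the saline muscle arrays. The 5 highest values were all from paw arrays, and the 1 low paw value was that of saline paw array 1, which overlapped the muscle range of 4.74 to 5.85. The group means and SDs (n = 3 each) were 6.22 ± 0.15 in CFA paw, 6.16 ± 0.67 in saline paw, 5.17 ± 0.074 in CFA muscle, 5.36 ± 0.56 in acid muscle and 5.48 ± 0.39 in saline muscle. In this order of levels, CFA paw, saline paw, saline muscle, acid muscle and CFA muscle, the one step between neighbours that reached the larger of their SDs was that from saline paw to saline muscle, and their ranges overlapped.

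**Figure D1:**
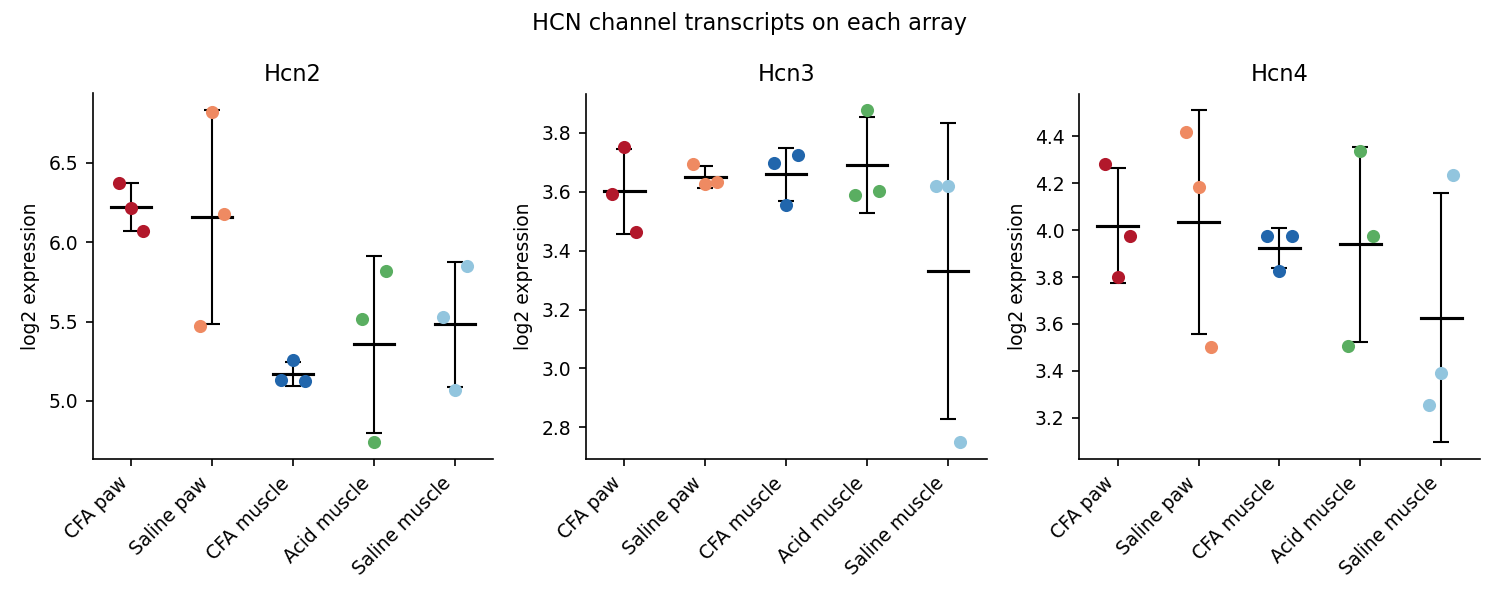
Log2 level of Hcn2, Hcn3 and Hcn4 on each array (points) with the group mean and SD (bars), by group, with 3 arrays per group. Hcn2 lay between 5.47 and 6.82 on paw arrays and between 4.74 and 5.85 on muscle arrays, while Hcn3 had 1 low value in saline muscle (2.75) and Hcn4 had 2 (3.26 and 3.39), below all arrays of the other groups.

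Hcn3 was close to flat across the groups. Its log2 level was 3.59, 3.75 and 3.46 in CFA paw, 3.70, 3.63 and 3.63 in saline paw, 3.70, 3.56 and 3.72 in CFA muscle, 3.59, 3.88 and 3.60 in acid muscle and 3.62, 3.62 and 2.75 in saline muscle. Thus 14 of the 15 arrays lay between 3.46 and 3.88, and saline muscle array 3 alone lay below. The means were 3.60 ± 0.14 in CFA paw, 3.65 ± 0.037 in saline paw, 3.66 ± 0.090 in CFA muscle, 3.69 ± 0.16 in acid muscle and 3.33 ± 0.50 in saline muscle (SD, n = 3 each). No step between neighbouring groups in the order of levels exceeded the larger of their SDs.

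Hcn4 varied as much within groups as between them. Its log2 level was 4.28, 3.80 and 3.97 in CFA paw, 4.42, 4.18 and 3.50 in saline paw, 3.97, 3.82 and 3.97 in CFA muscle, 3.51, 4.34 and 3.97 in acid muscle and 3.26, 3.39 and 4.23 in saline muscle. Each of the 5 groups had at least 1 array above 3.9, and the ranges of all groups overlapped, though 2 saline muscle arrays lay below every array of the other groups. The means were 4.02 ± 0.24 in CFA paw, 4.03 ± 0.48 in saline paw, 3.92 ± 0.085 in CFA muscle, 3.94 ± 0.42 in acid muscle and 3.63 ± 0.53 in saline muscle (SD, n = 3 each). None of the steps in the order of levels exceeded the larger SD of the groups beside it.

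All 3 probe sets were above the dim limit on all 15 arrays. The pooled SD within groups was 0.435 for Hcn2, 0.249 for Hcn3 and 0.387 for Hcn4, against a median of 0.232 over all genes, which put Hcn2 at the 90.6th percentile of spread, Hcn3 at the 56.1st and Hcn4 at the 85.3rd. The members did not vary as a block. Over the 15 arrays Pearson's r was −0.23 between Hcn2 and Hcn3, 0.12 between Hcn2 and Hcn4 and −0.12 between Hcn3 and Hcn4, a description of values that share arrays and their normalization. Levels are not compared between members, since each probe set has its own brightness.

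The first question was whether inflammation or acid changed the members in the injected neurons. None of the 3 passed in any of the injection comparisons, in which 0.0% of genes passed at an adjusted p of 0.05 in limma, with 19938 genes tested. Each comparison below is a log2 difference with its 95% interval from the fit of all 15 arrays. CFA paw and saline paw differed in Hcn2 by 0.064 (−0.61 to 0.73), in Hcn3 by −0.050 (−0.47 to 0.37) and in Hcn4 by −0.015 (−0.62 to 0.59). For Hcn2 that interval runs from a fold of 0.657 to a fold of 1.66, the range of changes that 3 arrays a group leave possible. At an unadjusted p under 0.05, 241 genes (1.21%) differed between CFA paw and saline paw, and none of the members was among them.

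In the muscle neurons, Hcn2 was 0.31 lower after CFA than after saline (−0.98 to 0.36 for the difference) and 0.12 lower after acid than after saline (−0.79 to 0.55), neither past the test. Leaving out saline muscle array 2 or 3 moved the CFA value to −0.52 or −0.13, and the acid value turned to 0.19 without acid muscle array 2 and to 0.060 without saline muscle array 3. Hcn3 differed by 0.33 between CFA muscle and saline muscle (−0.090 to 0.75) and by 0.36 between acid muscle and saline muscle (−0.060 to 0.78). Both values rested on saline muscle array 3 and came to 0.039 and 0.069 without it. Hcn4 differed by 0.30 between CFA muscle and saline muscle (−0.31 to 0.90) and by 0.31 between acid muscle and saline muscle (−0.29 to 0.92). These were 0.11 and 0.13 without saline muscle array 1, 0.18 and 0.19 without array 2 and 0.60 and 0.62 without array 3, and the acid value was 0.11 without acid muscle array 2 and 0.53 without acid muscle array 1. The CFA and acid comparisons share the saline muscle arrays, so their like values are not independent. CFA muscle and acid muscle, which share none, differed by −0.19 in Hcn2 (−0.86 to 0.48), −0.031 in Hcn3 (−0.45 to 0.39) and −0.016 in Hcn4 (−0.62 to 0.59). At an unadjusted p under 0.05, 518 genes (2.6%) differed after CFA in muscle, 568 (2.85%) after acid and 626 (3.14%) between CFA and acid, and no member was among them.

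The CFA effect in muscle minus that in paw was −0.38 for Hcn2 (SE 0.442), 0.38 for Hcn3 (SE 0.277) and 0.31 for Hcn4 (SE 0.398). With 1 array left out they ran from −0.71 (without saline paw array 2) to −0.033 (without saline paw array 1) for Hcn2, from 0.089 (without saline muscle array 3) to 0.52 for Hcn3, and from 0.12 (without saline paw array 1) to 0.62 (without saline muscle array 3) for Hcn4. None of these differences of effects passed the test, and neither did any other gene (0.0%), with 325 genes (1.63%) at an unadjusted p under 0.05.

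**Figure D2:**
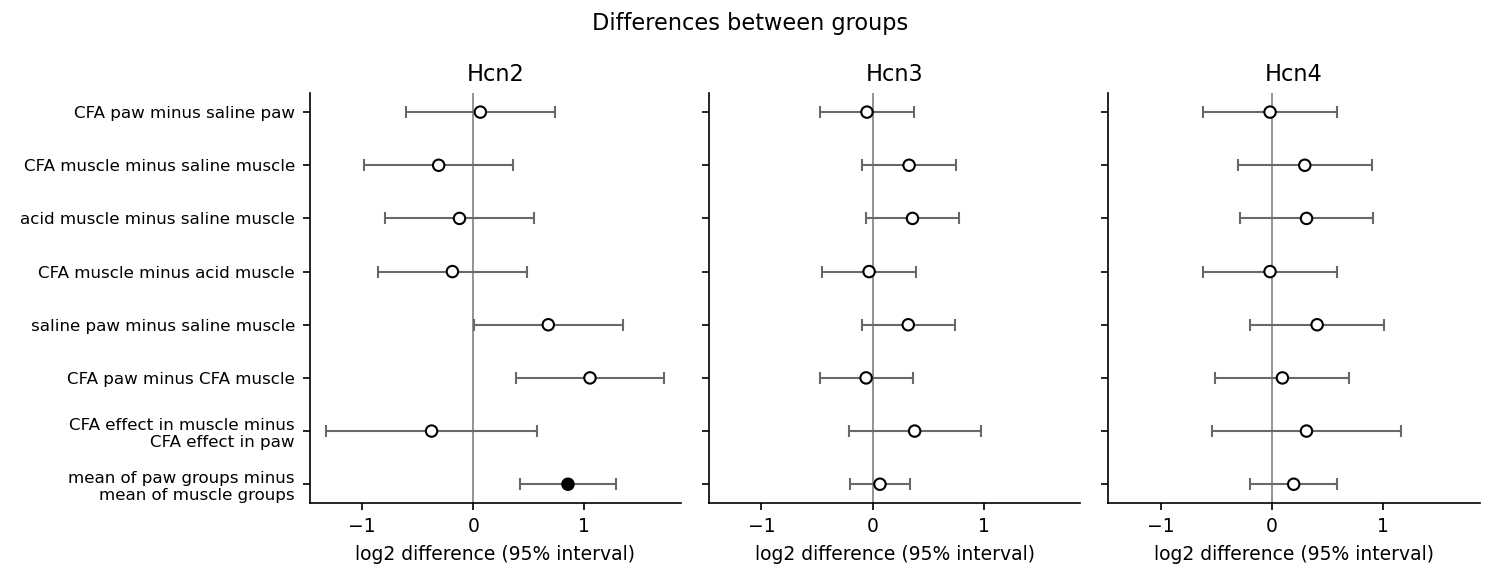
Log2 differences of Hcn2, Hcn3 and Hcn4 (points) with 95% intervals (bars) in each comparison, from the fit of all 15 arrays. The intervals of all injection comparisons include 0, and the Hcn2 interval for paw minus muscle runs from 0.42 to 1.28.

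The second question was how the CGRP-positive skin neurons differed from the CGRP-negative muscle neurons. Hcn2 was higher by 0.85 on the log2 scale in the mean of the paw groups than in the mean of the muscle groups (SE 0.202, 95% interval 0.42 to 1.28), a 1.81-fold difference (1.34 to 2.44) with a limma adjusted p of 0.00936. The 6 paw arrays averaged 6.19 ± 0.44 and the 9 muscle arrays 5.34 ± 0.37 (SD). An exact two-sided permutation test of the 6 paw against the 9 muscle arrays gave p = 0.0028. The call held with each array left out in turn, with differences from 0.69 (without saline paw array 2) to 1.02 (without saline paw array 1) and limma adjusted p from 0.000476 to 0.0297. It did not hold with cyclic loess, quantile normalization or the array SD as covariate, whose values are given with the scaling below.

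Hcn3 differed by 0.067 between the paw and muscle means (SE 0.127, −0.20 to 0.34, limma adjusted p = 0.721), with a permutation p of 0.86 in the exact test. Hcn4 differed by 0.20 (SE 0.182, −0.19 to 0.59, limma adjusted p = 0.444), with a permutation p of 0.315 in the exact test. Thus 1 of the 3 members passed, against 19.5% of all genes in either direction and 13.9% higher and 5.65% lower in paw, and a count of 1 in so short a list is not told from that background. The Hcn2 interval and those of Hcn3 and Hcn4 were not tested against each other.

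Within each condition the Hcn2 difference had the same direction with wider error. Between CFA paw and CFA muscle it was 1.05 (0.38 to 1.72), a 2.07-fold difference, and the ranges of 6.07 to 6.38 in CFA paw and 5.13 to 5.26 in CFA muscle did not overlap. The limma adjusted p was 0.0615, which did not pass, while 6.41% of genes passed and 36.0% had ranges that did not overlap. Between saline paw and saline muscle the difference was 0.68 (0.0062 to 1.35), with a limma adjusted p of 0.291, in a comparison in which 2.04% of genes passed. Without saline paw array 1 it was 1.02 with a limma adjusted p of 0.0236, and without saline paw array 2, the highest Hcn2 value, it was 0.34 and did not pass.

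Hcn3 differed by −0.058 between CFA paw and CFA muscle and by 0.32 between saline paw and saline muscle, and Hcn4 by 0.096 and 0.41, none past the test. The Hcn3 ranges of 3.63 to 3.70 in saline paw and 2.75 to 3.62 in saline muscle did not overlap, by a narrow gap, which held for 15.2% of all genes in that comparison. Without saline muscle array 3 the Hcn3 difference was 0.031. These single-condition comparisons use the same arrays as the comparison of means and add no independent evidence to it.

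General markers of sensory neurons moved with Hcn2. All 9 of them passed the test and were higher in paw, by 0.62 to 1.73 with a median of 0.90, and their mean level ran from 7.61 to 8.68 on paw arrays and from 6.83 to 7.78 on muscle arrays. Saline paw array 1 had the lowest marker mean and the lowest Hcn2 of the paw arrays, and acid muscle array 2 had the lowest of both among the muscle arrays. Saline muscle array 3 went the other way, with the highest Hcn2 of the muscle arrays (5.85) and a marker mean of 7.14, lower than on 6 of the other 8. Taken relative to the mean of these markers on the same array, Hcn2 was 0.27 lower in paw than in muscle (exact permutation p = 0.0835), so its difference was no larger than that of the markers. The same relative value, written as paw minus muscle, was −1.06 for Hcn3 (exact permutation p = 0.0016) and −0.93 for Hcn4 (exact permutation p = 0.0156), near the −1.18 of the median gene. The marker mean was itself 1.13 higher in paw, so a gene with equal levels in both classes takes a negative relative value. These p-values therefore do not test a change in Hcn3 or Hcn4. In these sorted pools, fewer cells of a type and less RNA per cell cannot be told apart.

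**Figure D3:**
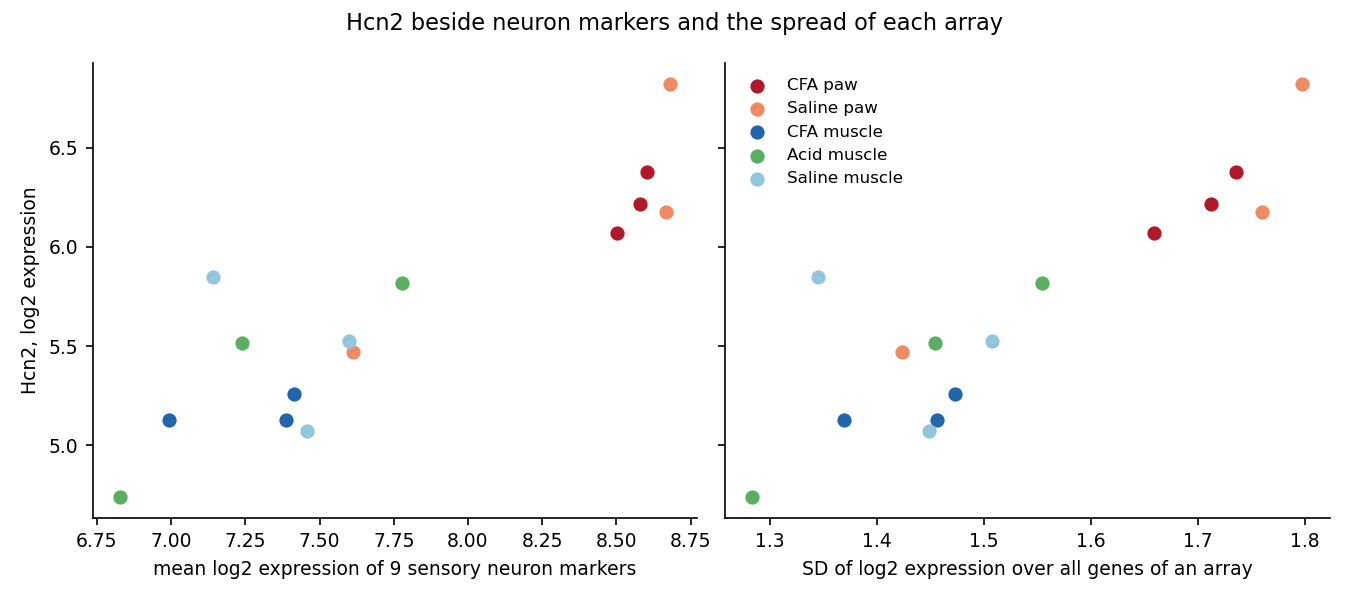
Log2 level of Hcn2 on each of the 15 arrays against the mean level of 9 sensory neuron markers and against the SD over all genes of that array, coloured by group. Paw arrays lie at the upper right, apart from saline paw array 1 (marker mean 7.61, SD 1.42), which lies among the muscle arrays.

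Some markers of other cell types also differed between the sorted pools. Of 7 Schwann cell markers, 4 were lower in paw and none higher (median difference −0.62), and 5 of 9 endothelial and mural markers were lower in paw (median −0.50). Over all genes, 5.65% were lower in paw and 13.9% higher. The mean level of the Schwann cell markers ran from 4.43 to 4.73 on paw arrays and from 4.50 to 5.81 on muscle arrays. For fibroblast markers 1 of 7 passed, lower in paw, for satellite glia 1 of 9, higher in paw, and for macrophage (10 measured) and erythroid markers (2 measured) 0 passed. Counts of 1 in such short lists are not told from the shares over all genes. Among neurons, 7 of 8 peptidergic nociceptor markers were higher in paw (median 2.49), in the direction that the sort on the CGRP reporter sets, as were 5 of 11 markers of large myelinated neurons (median 0.78). Of 10 markers of non-peptidergic nociceptors, 2 were higher and 5 lower in paw. Without saline paw array 1, 9 of 9 sensory neuron markers were still higher in paw (median 1.11), and 5 of 7 Schwann cell, 7 of 9 endothelial and mural, 4 of 7 fibroblast and 2 of 10 macrophage markers were lower. Satellite glia then had 4 of 9 markers higher, and large myelinated neurons 8 of 11 higher and 1 lower. Without that array 22.05% of all genes were higher and 17.8% lower, so the macrophage count is near the share over all genes. The part of these markers in the Hcn2 difference was not tested beyond the relative values above.

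The size of the Hcn2 difference depended on how the arrays were scaled. It was 0.37 with cyclic loess between arrays (limma adjusted p = 0.0962), 0.34 with quantile normalization (adjusted p = 0.181) and 0.19 with the SD of an array entered as covariate (adjusted p = 0.771). The difference kept its direction under each of these and did not pass. Apart from saline paw array 1, the array SD was itself higher on every paw array than on the muscle arrays. The covariate thus overlaps with neuron class, and that fit cannot separate the SD from the class. Centring each array on its median left the call in place. The median of the 9 sensory neuron markers shrank alongside, to 0.22 with cyclic loess, 0.37 with quantile normalization and 0.19 with the covariate, where 4, 4 and 1 of the 9 passed.

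**Figure D4:**
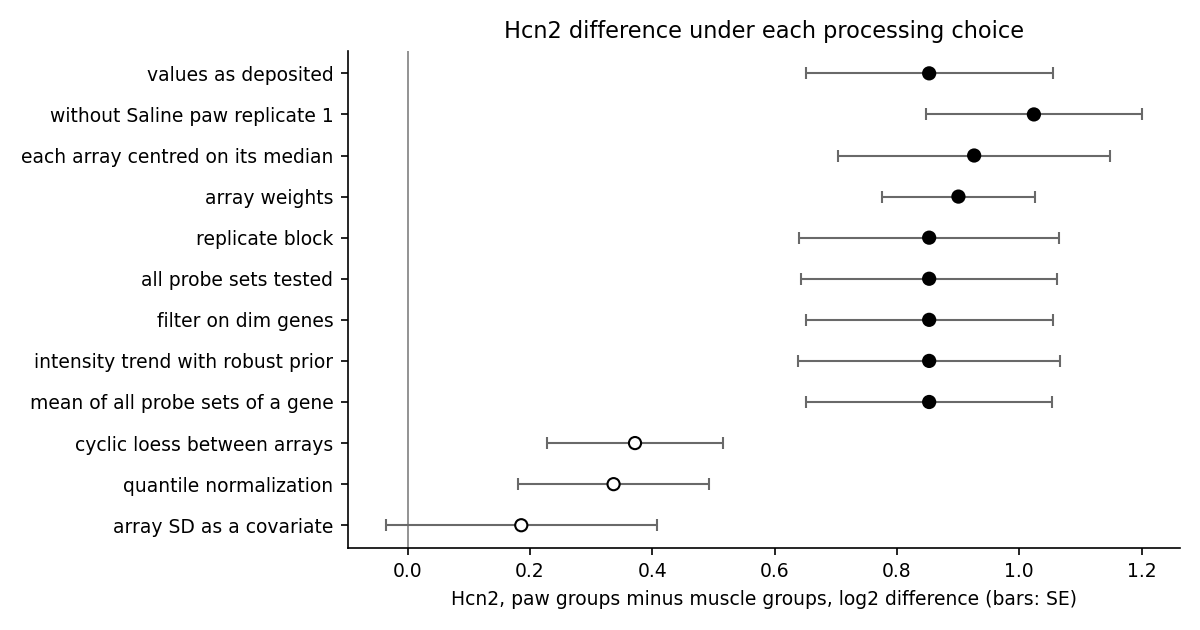
Log2 difference of Hcn2 between the mean of the paw groups and the mean of the muscle groups as deposited and under other ways of processing (filled points past the test, open points not), with its standard error (bars). The difference is 0.85 as deposited and falls to 0.37, 0.34 and 0.19 under cyclic loess, quantile normalization and the array SD covariate.

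Genes that make, sense and break down cyclic nucleotides, the ligands of HCN channels, included several with differences larger in size than that of Hcn2. Of 39 measured, 13 were higher and 2 lower in the mean of the paw groups than in the mean of the muscle groups, with a median difference of 0.11 against −0.050 over all genes, of which 13.9% were higher and 5.65% lower. Pde2a, a phosphodiesterase that breaks down both cAMP and cGMP, was 1.47 higher (SE 0.175), with means of 6.31 in CFA paw and 6.05 in saline paw, against 4.68 in CFA muscle, 4.87 in acid muscle and 4.59 in saline muscle. Pde8b, a phosphodiesterase with high affinity for cAMP, was 1.34 higher (SE 0.154), and Gnaz, an inhibitory G protein alpha subunit, 1.32 higher (SE 0.152). Pde1c, a phosphodiesterase driven by calcium and calmodulin, was 0.91 higher (SE 0.136). Pde2a, Pde8b and Gnaz kept the call under all 4 scalings (median centring, cyclic loess, quantile normalization and the covariate), with smallest differences of 0.88, 0.95 and 0.88, and Pde1c under 3 of them. On the values as deposited, Pde2a, Pde8b and Gnaz also passed between saline paw and saline muscle (1.47, 1.35 and 1.04) and between CFA paw and CFA muscle (1.63, 1.43 and 1.65). The list's counts were 9 higher and 2 lower with cyclic loess and with quantile normalization, and 3 higher and 1 lower with the covariate. Over all genes, 8.68% were higher and 6.38% lower with cyclic loess, and 6.65% and 4.97% with quantile normalization. With the covariate these shares were 1.86% and 1.94%. Without saline paw array 1 the list's counts were 15 higher and 6 lower, while the shares over all genes became 22.05% higher and 17.8% lower.

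Among receptors that act through the stimulatory G protein and so raise cAMP, 1 of 22 was higher in paw and 3 were lower (median −0.19), beside 13.9% and 5.65% of all genes. The counts were 1 and 1 with cyclic loess (beside 8.68% and 6.38% of all genes) and with quantile normalization (6.65% and 4.97%). They were 1 and 0 with the covariate (1.86% and 1.94%), and 1 and 7 without saline paw array 1 (22.05% and 17.8%). The higher one was Ptgir, the prostacyclin receptor, a known sensor of inflammatory prostaglandins on nociceptors. Ptgir was 1.79 higher in paw (SE 0.176), with means of 5.56 in CFA paw and 5.06 in saline paw, against 3.33 in CFA muscle, 3.60 in acid muscle and 3.65 in saline muscle. It passed under all 4 scalings, with a smallest difference of 1.24, and both between saline paw and saline muscle (1.41) and between CFA paw and CFA muscle (2.23). Pth1r, the parathyroid hormone receptor, was lower in paw, with a difference of −0.59 (SE 0.114), and held under 3 scalings. Htr7, a serotonin receptor, and Drd5, a dopamine receptor, were lower in paw, with differences of −0.43 and −0.33. They held under 1 and 0 of the scalings.

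**Figure D5:**
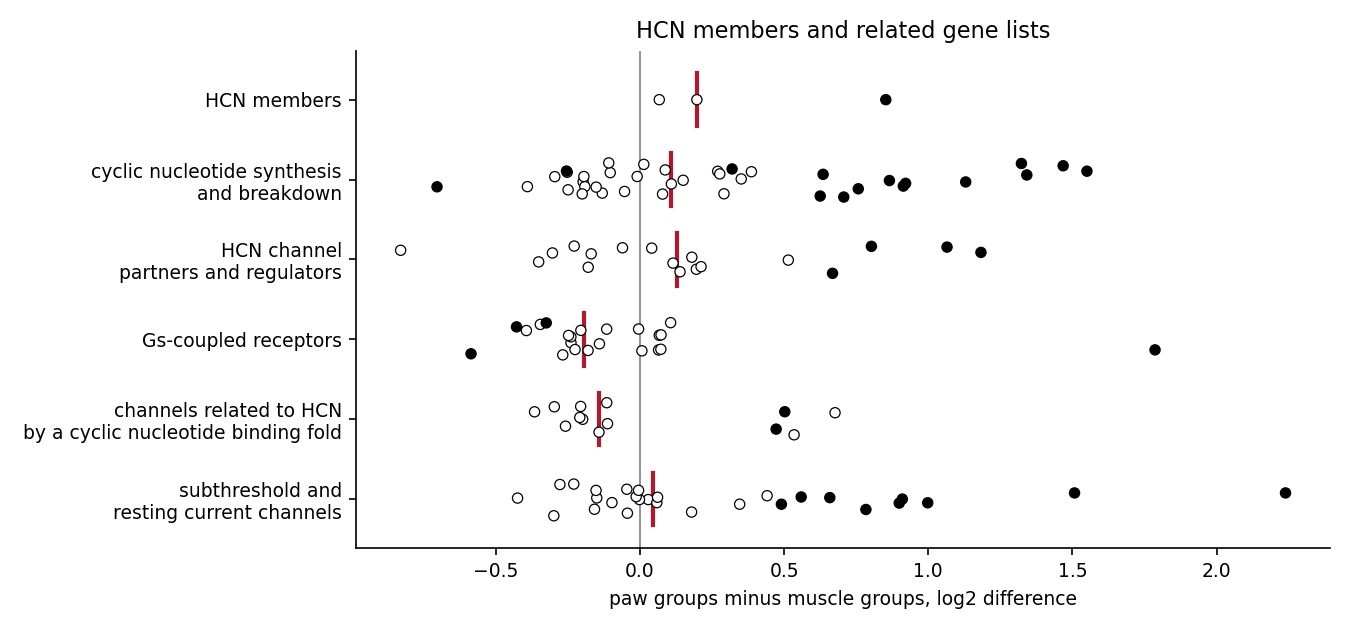
Log2 difference between the mean of the paw groups and the mean of the muscle groups for every measured gene of 5 lists around the HCN channels, 1 point per gene, with genes past the test marked. Most genes lie near 0, and the points furthest to the right include Kcnq5 (2.24), Ptgir (1.79), Gnao1 (1.55), Kcnd1 (1.51) and Pde2a (1.47).

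Of 18 known partners and regulators of HCN channels, 4 were higher in paw and 0 lower (median 0.13), beside 13.9% and 5.65% of all genes. The counts were 2 and 3 with cyclic loess (beside 8.68% and 6.38% of all genes) and 2 and 2 with quantile normalization (6.65% and 4.97%). They were 0 and 2 with the covariate (1.86% and 1.94%), and 5 and 4 without saline paw array 1 (22.05% and 17.8%). The 4 were Apba2, a neuronal adaptor protein (1.18, SE 0.212), Nedd4l, a ubiquitin ligase of membrane channels (1.07, SE 0.191), Ptpra, a receptor tyrosine phosphatase (0.67, SE 0.153) and Prkg1, a cGMP-dependent kinase (0.80, SE 0.263). Apba2 and Nedd4l kept the call under 3 scalings, and Ptpra and Prkg1 under median centring alone. Prkg1 turned to −0.20 with the covariate. Pex5l, the auxiliary subunit known as TRIP8b that steers HCN channels to the membrane, differed by 0.20 and did not pass.

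Of 13 channels that share the cyclic nucleotide binding fold with HCN channels, 2 were higher in paw and 0 lower (median −0.14), near the 13.9% of all genes that were higher. The counts were 0 and 1 with cyclic loess (beside 8.68% and 6.38% of all genes) and with quantile normalization (6.65% and 4.97%). They were 0 and 0 with the covariate (1.86% and 1.94%), and 4 and 5 without saline paw array 1 (22.05% and 17.8%). The 2 were the potassium channels Kcnh2 (0.47, SE 0.133) and Kcnh1 (0.50, SE 0.144), each held under median centring alone. Of 28 other channels that act near the resting potential, 9 were higher in paw and 0 lower (median 0.044), beside 13.9% and 5.65% of all genes. The counts were 5 and 2 with cyclic loess (beside 8.68% and 6.38% of all genes) and 4 and 2 with quantile normalization (6.65% and 4.97%). They were 2 and 1 with the covariate (1.86% and 1.94%), and 10 and 3 without saline paw array 1 (22.05% and 17.8%). Kcnq5, a subunit of the M-type potassium current, was 2.24 higher (SE 0.210), with means of 5.76 in CFA paw and 5.35 in saline paw, against 3.26 in CFA muscle, 3.33 in acid muscle and 3.36 in saline muscle. Kcnd1, a subunit of the transient A-type current, was 1.51 higher (SE 0.174), Kcna2, a delayed rectifier subunit, 0.91 higher (SE 0.147) and Unc79, part of the sodium leak channel complex, 0.49 higher (SE 0.103). Kcnq5 and Kcnd1 kept the call under all 4 scalings, Unc79 under 3 and Kcna2 under 1. Kcnq5 and Kcnd1 also passed between saline paw and saline muscle, by 1.99 and 1.53, and between CFA paw and CFA muscle, by 2.50 and 1.52.

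No gene of these 5 lists passed in an injection comparison, where no gene of the array passed, and the values with the smallest p follow as a description. Of the genes named, Kcne2 and Cnga2 had mean levels over all arrays under the dim limit. Between CFA paw and saline paw the difference was −0.32 in Adcy6, an adenylyl cyclase, 0.47 in Pde1c, −0.26 in Grasp, 0.22 in Flna, −0.33 in Pth1r, 0.50 in Ptgir, −0.39 in Kcnh5, −0.19 in Cnga3, −0.46 in Ano1 and −0.21 in Unc79. Between CFA muscle and saline muscle it was 0.46 in Pde4b, a cAMP phosphodiesterase, −0.21 in Pde10a, 0.36 in Flna, −0.22 in Kcne2, −0.32 in Vipr1, −0.21 in Gpr3, −0.29 in Kcnh2, 0.16 in Cnga2, −0.70 in Kcnj3 and 0.29 in Cacna1i. Between acid muscle and saline muscle it was 0.52 in Npr1, the receptor of atrial natriuretic peptide, 0.35 in Pde4b, 0.29 in Prkg2, 0.21 in Grasp, 0.37 in Crhr1, 0.34 in Htr6, 0.47 in Kcnh4, 0.30 in Cngb1, 0.50 in Kcnj4 and 0.32 in Kcnk2. The largest of these by size was that of Kcnj3, a subunit of the potassium channels that G proteins open, at an unadjusted limma p of 0.0078 and an adjusted p of 1.00.

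Between CFA muscle and acid muscle, the values with the smallest p were 0.38 in Adcy2, −0.22 in Pde10a, 0.43 in Flna, −0.24 in Grasp, −0.34 in Ptger4, −0.27 in Crhr1, −0.45 in Kcnh4, −0.42 in Kcnh2, −0.56 in Kcnj3 and 0.39 in Kcna4. For the CFA effect in muscle minus that in paw they were −0.63 in Pde1c, 0.62 in Pde4b, 0.46 in Prkg2, −0.27 in Kcne2, −0.82 in Ptgir, −0.59 in Vipr1, 0.18 in Cnga2, −0.49 in Kcnh7, −0.71 in Kcnj3 and 0.51 in Ano1. None passed.

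Genes whose pattern over the 15 arrays was most like that of each member were taken from 12847 named genes above the dim limit. For Hcn2 these were Ndufs7, a subunit of mitochondrial complex I (Pearson's r 0.953), Nfasc, an adhesion protein of the axon initial segment and the node of Ranvier (0.951), the phosphatase gene Phospho1 (0.947), the palmitoyltransferase gene Zdhhc8 (0.946) and Chga, a protein of secretory granules (0.946). The 2 most opposed were Sash3 (−0.949) and Nell1 (−0.920). After subtracting group means, r was 0.891 for Ndufs7 and 0.929 for Nfasc. These genes were picked by r over the same arrays, and that r already includes the deviations within groups. The values after subtraction are therefore a description and no separate check of the likeness. These values share arrays, normalization and the differences in SD between arrays described above.

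For Hcn3 the closest were Uap1l1 (0.863), Ankle2 (0.783), Mideas (0.781), Gatb (0.760) and Zfp277 (0.758), and the most opposed were Fbxo16 (−0.871) and Zdhhc6 (−0.819). Without saline muscle array 3, the low Hcn3 value, these fell to between 0.251 and 0.584 for the closest and to −0.404 and −0.061 for the opposed, so they rested on that array. For Hcn4 the closest were Tmem26 (0.804), Krtap9-3 (0.768), Nphp4 (0.750), Ercc2 (0.748) and Dusp14 (0.747), and the most opposed were Pnpla8 (−0.765) and Dock10 (−0.756). Without saline muscle array 1, the array furthest from the median of Hcn4, these stayed between 0.688 and 0.792 and at −0.680 and −0.664.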

How the data were processed

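RNA of 15 samples (5 groups of 3) was measured on Affymetrix whole-transcript arrays from 50 ng of RNA, amplified and labelled with biotin, per the labels. The authors deposited 1 log2 value per probe set and array, made with RMA and Partek, per the submitters' processing notes. These give no version and no log base, and log2 was inferred from the values' range. No further normalization was applied in the tests reported. Normalizing arrays together can compress or shift differences where one group's RNA differs broadly from another's.

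Of 35556 probe sets, 21789 had 1 gene symbol, and 1621 with several symbols and 12146 not named in the probe table were not used. Where a gene had several probe sets (999 genes), the one with the highest mean was taken, which left 19938 genes. Groups came from the sample titles. Differences were tested with limma 3.58.1 in R 4.3.3, in a model of 5 group means over all 15 arrays with empirical Bayes moderation, two-sided, with Benjamini-Hochberg adjustment over all genes at a threshold of 0.05. Comparisons were each injection against saline, CFA against acid in muscle, paw against muscle within saline and within CFA, the difference of the CFA effects, and the mean of the paw groups against the mean of the muscle groups. The alternatives were median centring, cyclic loess, quantile normalization, the array SD as a covariate, array weights, a robust prior with an intensity trend, a filter on dim genes, the mean of a gene's probe sets, all probe sets, only the arrays compared, a replicate block, omission of each array in turn and other thresholds. The exact permutation tests, added after seeing the data, enumerated all 5005 arrangements of the 15 arrays.

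The members and lists were chosen with earlier results of these data known. Of each list the text names the genes past the threshold, at most the 4 with the smallest p per comparison, or, where none passes, the 2 with the smallest p; like genes are the 5 highest and 2 lowest by Pearson's r among genes above the dim limit. Pex5l and, in a caption, Gnao1 lie outside that rule and were named after their values were seen. The scripts were tested on simulated data. The number of arrays limits the precision.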

Additional observations from a re-analysis of the deposited data

How the results depend on the processing

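The Hcn2 difference between paw and muscle means passed as deposited (0.85) and did not pass with cyclic loess (0.37), quantile normalization (0.34) or the array SD as a covariate (0.19). Relative to the sensory neuron markers, an alternative chosen after seeing the data, it was −0.27, with −1.06 for Hcn3 and −0.93 for Hcn4. These relative values carry the 1.13 by which the marker mean was higher in paw. The cause of the Hcn2 difference was not tested. Between CFA paw and CFA muscle, Hcn2 passed with array weights (1.06), with dim genes filtered, with only the arrays compared and at a threshold of 0.1 (1.05 each), and between saline paw and saline muscle with array weights (0.89). Members that did not pass changed sign as follows. For CFA paw against saline paw, Hcn2 was −0.049 with the covariate, −0.00077 with array weights, −0.010 with loess and −0.026 with quantile normalization, and Hcn4 was 0.063 with the covariate, 0.41 with weights, 0.030 with loess and 0.020 with centring. For acid muscle against saline muscle, Hcn2 was 0.15 with weights. For CFA muscle against acid muscle, Hcn3 was 0.020 with weights, 0.0068 with loess and 0.00094 with centring, and Hcn4 was 0.17, 0.016 and 0.016. For CFA paw against CFA muscle, Hcn3 was 0.028 with centring.

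Leaving out each array in turn gave Hcn2 0.69 to 1.02 for the paw and muscle means, 0.97 to 1.13 for CFA paw against CFA muscle (adjusted p 0.0135 to 0.193, past the threshold without acid muscle array 2, saline paw array 1 or saline paw array 2), 0.34 to 1.02 for saline paw against saline muscle, −0.28 to 0.40 for CFA paw against saline paw, −0.35 to 0.19 for acid against saline muscle, −0.52 to −0.13 for CFA against saline muscle and −0.50 to 0.043 for CFA against acid muscle. It gave Hcn3 −0.081 to 0.063 for CFA against acid muscle, −0.13 to 0.012 for CFA paw against CFA muscle, −0.12 to 0.019 for CFA paw against saline paw and −0.030 to 0.12 for the paw and muscle means. It gave Hcn4 −0.23 to 0.18, −0.036 to 0.20 and −0.28 to 0.18 for the first 3 of these. Counts of genes past the threshold ran from 0 to 1 for the difference of CFA effects, 0 to 6 for CFA against acid muscle, 0 to 8 for CFA against saline muscle, 527 to 2588 for CFA paw against CFA muscle, 2266 to 7943 for the paw and muscle means and 51 to 3824 for saline paw against saline muscle. The count of 7943 and that of 3824 were without saline paw array 1.

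The count of genes was 3897 (2770 higher in paw and 1127 lower) for the paw and muscle means, 758 with the covariate (371 and 387), 10421 with weights, 3003 with loess (1730 and 1273), 2316 with quantile normalization (1325 and 991), 3616 with centring (3013 and 603) and 1767 at a threshold of 0.01. It was 1279 (1146 and 133) for CFA paw against CFA muscle, 444 with the covariate (232 and 212), 4054 with weights, 992 with loess (700 and 292), 3209 with only the arrays compared, 695 with quantile normalization (477 and 218), 425 at 0.01 and 2067 at 0.1. It was 407 (373 and 34) for saline paw against saline muscle, 370 with the covariate (164 and 206), 7379 with weights, 426 with loess (265 and 161), 345 with quantile normalization (213 and 132), 199 with centring, 0 with only the arrays compared (2261 at an unadjusted p under 0.05), 86 at 0.01 and 896 at 0.1. For CFA paw against saline paw it was 0, and 125 with weights, which ran from 0.148 (saline paw array 1) to 7.18 (saline paw array 3).

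Over 30 pairs of arrays with the same replicate number, the correlation of deviations from group means ran from −0.534 to 0.339 (median −0.045). Over 60 pairs with other numbers it ran from −0.489 to 0.570 (median 0.070). These ranges cannot show whether arrays with the same number were processed together. With the replicate number as a block, Hcn2 was 0.85 for the paw and muscle means with a limma adjusted p of 0.0169, the counts were 3350, 1144 and 316, and no call of a member changed.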

Other observations

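Some log2 values of the members were identical on several arrays. The Hcn4 value of 3.97 was the same to the last digit on 4 arrays (CFA paw 3, CFA muscle 1, CFA muscle 3 and acid muscle 3), and the Hcn3 value of 3.62 on 2 arrays (saline muscle 1 and 2), while Hcn2 had no such pair. Ties of this kind occurred for 46.4% of all genes. How they arose was not tested.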
